A study of Mus musculus with 48 samples.

Results

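The genes of cholesterol synthesis, of its control by the sterol regulatory element-binding proteins (SREBPs) and of the oxysterol receptor LXR were followed in mouse skin after treatment with inhibitors of diacylglycerol O-acyltransferase 1 (DGAT1), the enzyme that adds the last acyl chain in triglyceride synthesis. The list held 35 genes, chosen by their function but with earlier results of these data known. The counts set beside the shares of all genes are therefore descriptive. Of the 35 genes, 30 were named by 50 of the 38385 probesets of the array. All 50 probesets passed the filter on low intensity that left 28789 probesets and 15320 named genes in the tests. Acat2, Fdft1, Srebf1, Nr1h2 and Nr1h3 were matched by no probeset and were not analysed here, so the receptors of the LXR pair themselves were not read. Each gene was described by its probeset with the highest mean, and levels are log2 intensities, which can be compared between mice for 1 gene but not between genes.

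Male C57BL/6 mice made obese on a high-fat diet, aged 8 weeks per the labels, were dosed by mouth for 14 days, and RNA of dorsal skin was profiled on 48 arrays, 1 per mouse. Study 1 held 8 mice on Cpd2, 8 mice on Cpd1 and 8 mice on vehicle (methylcellulose). Study 2 held 4 mice on Cpd2, 4 mice on Cpd6 and 4 mice on vehicle, and Study 4 held 4 mice on Cpd6, 4 mice on Cpd18 and 4 mice on vehicle. Histology in the study had classed Cpd2 and Cpd6 as skin-positive, meaning that they caused sebaceous gland atrophy, and Cpd1 and Cpd18 as skin-negative. Cpd6 and Cpd18 belong to the same structural series, and Cpd1 and Cpd2 to different ones. The labels give no dose for the array groups. Where the study describes histology, it names a lower dose for Cpd1 than for Cpd2, so compounds were set side by side within a study without the assumption of equal doses, and compound and dose cannot be told apart there. The methods describe biopsies from the dorsal and/or ventral surface.

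Cholesterol is built from acetyl-CoA through mevalonate to the isoprenoid farnesyl diphosphate, which is joined to squalene, closed to lanosterol and trimmed to cholesterol. When membrane cholesterol falls, SCAP carries SREBP-2 to the Golgi for cleavage, and the released factor activates the enzymes of the whole pathway. INSIG proteins hold SCAP in the endoplasmic reticulum when sterols are plentiful. Oxysterols bind LXR, which raises the genes of cholesterol export. In skin, sterols are made in the epidermis for its barrier and in the sebaceous gland for sebum.

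The promoters of 7 genes are shown because their transcripts were lower both with Cpd2 in Study 1 and with Cpd6 in Study 4. That of Ch25h is shown because its transcript was higher with Cpd2 in Study 1, though it did not pass with Cpd6 in Study 4. The sequences are those of RefSeq on the mouse build GRCm38.p6, 250 bases before and 50 bases after the annotated start. They were searched on both strands for CCAAT, the site of the factor NF-Y, which is known to act with SREBPs at sterol genes, and for the sterol regulatory element TCACNCCAC. Capitals mark CCAAT or its reverse complement. Idi1 lies at chr13:8885356-8885655 (plus strand), Lss at chr10:76531355-76531654 (plus strand), Tm7sf2 at chr19:6067801-6068100 (minus strand), Msmo1 at chr8:64733529-64733828 (minus strand), Hsd17b7 at chr1:169969156-169969455 (minus strand), Ebp at chrX:8193463-8193762 (minus strand), the most upstream of the Insig2 starts at chr1:121332540-121332839 (minus strand) and Ch25h at chr19:34475099-34475398 (minus strand).
Idi1: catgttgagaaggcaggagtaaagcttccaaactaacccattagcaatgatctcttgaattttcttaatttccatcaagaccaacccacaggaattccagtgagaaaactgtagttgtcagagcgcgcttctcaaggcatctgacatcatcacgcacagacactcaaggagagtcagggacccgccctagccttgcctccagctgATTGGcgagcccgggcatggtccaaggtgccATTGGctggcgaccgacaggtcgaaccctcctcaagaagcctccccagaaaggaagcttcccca
Lss: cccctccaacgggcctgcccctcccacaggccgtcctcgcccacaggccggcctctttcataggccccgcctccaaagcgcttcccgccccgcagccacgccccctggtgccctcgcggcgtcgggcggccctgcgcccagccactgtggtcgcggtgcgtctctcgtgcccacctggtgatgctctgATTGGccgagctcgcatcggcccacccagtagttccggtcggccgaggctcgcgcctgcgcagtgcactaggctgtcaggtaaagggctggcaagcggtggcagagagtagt
Tm7sf2: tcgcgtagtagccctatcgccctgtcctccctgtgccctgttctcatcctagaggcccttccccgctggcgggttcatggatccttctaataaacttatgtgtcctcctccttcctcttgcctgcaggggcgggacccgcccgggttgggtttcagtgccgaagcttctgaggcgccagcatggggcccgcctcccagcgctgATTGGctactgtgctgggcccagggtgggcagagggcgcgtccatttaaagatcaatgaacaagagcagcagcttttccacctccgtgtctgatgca
Msmo1: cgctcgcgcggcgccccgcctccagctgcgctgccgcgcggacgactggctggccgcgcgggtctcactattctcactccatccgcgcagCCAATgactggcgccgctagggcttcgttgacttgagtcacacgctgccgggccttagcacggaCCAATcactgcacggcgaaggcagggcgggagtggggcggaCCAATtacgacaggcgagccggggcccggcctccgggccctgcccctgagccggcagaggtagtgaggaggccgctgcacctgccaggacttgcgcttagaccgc
Hsd17b7: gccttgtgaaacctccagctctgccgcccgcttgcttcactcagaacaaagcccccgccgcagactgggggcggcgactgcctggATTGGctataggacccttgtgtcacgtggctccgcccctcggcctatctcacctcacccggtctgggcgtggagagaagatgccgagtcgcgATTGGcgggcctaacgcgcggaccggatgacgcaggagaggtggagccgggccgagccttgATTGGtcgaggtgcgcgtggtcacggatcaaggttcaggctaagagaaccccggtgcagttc
Ebp: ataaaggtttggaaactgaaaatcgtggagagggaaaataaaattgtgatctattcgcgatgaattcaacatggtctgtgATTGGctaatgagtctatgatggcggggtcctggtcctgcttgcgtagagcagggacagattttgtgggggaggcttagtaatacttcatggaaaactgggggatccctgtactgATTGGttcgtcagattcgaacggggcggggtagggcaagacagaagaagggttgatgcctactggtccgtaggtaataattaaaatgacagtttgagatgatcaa
Insig2: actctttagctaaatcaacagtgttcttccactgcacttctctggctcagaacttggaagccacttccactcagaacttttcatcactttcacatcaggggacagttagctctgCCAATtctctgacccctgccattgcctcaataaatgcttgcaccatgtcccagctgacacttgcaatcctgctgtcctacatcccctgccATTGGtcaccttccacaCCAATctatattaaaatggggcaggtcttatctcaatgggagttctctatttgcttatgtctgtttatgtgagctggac
Ch25h: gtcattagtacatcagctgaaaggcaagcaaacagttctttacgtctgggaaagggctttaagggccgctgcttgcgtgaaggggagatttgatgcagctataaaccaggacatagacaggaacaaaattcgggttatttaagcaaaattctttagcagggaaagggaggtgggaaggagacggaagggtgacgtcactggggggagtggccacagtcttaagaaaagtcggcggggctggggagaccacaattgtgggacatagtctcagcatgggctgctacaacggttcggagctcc
The Msmo1, Hsd17b7 and Insig2 windows shown each held 3 copies of CCAAT, the Idi1 and Ebp windows 2, the Lss and Tm7sf2 windows 1 and the Ch25h window 0. The windows at the other annotated Insig2 starts held 0, and the arrays do not show which start is used.

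Promoter windows were found for 27 of the 35 genes. Of the 16 enzymes with a window, 15 (93.8%) held CCAAT, against 11096 of the 27025 genes in the whole promoter table (41.1%). All 7 genes that were lower in both comparisons held it in at least 1 window, as did 13 of the 16 other measured genes with a window (81.2%). The element TCACNCCAC was found at 1 enzyme, Hmgcs1, at position -137 from the start (6.25% of enzymes, against 1.44% of all genes). These are matches of letters in a short window, and genes with several starts had several windows to match in. 

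In Study 1, Cpd2 lowered much of the cholesterol pathway. Of the 30 genes measured, 13 were lower and 2 were higher than in vehicle skin at an adjusted p under 0.05 (limma with Benjamini-Hochberg adjustment over all probesets), while 7.15% of all genes tested were lower and 8.69% were higher. Of the 17 enzymes measured, 10 were lower and 0 were higher, and their median log2 difference was -0.35, beside 0.04 over all genes. The mean log2 level of the 17 enzymes was 9.94 ± 0.15 with Cpd2, 10.26 ± 0.05 with Cpd1 and 10.29 ± 0.15 with vehicle (SD, n = 8 each). With Cpd1, the median log2 difference of the enzymes from vehicle was -0.02, and single enzymes lay between -0.33 and 0.35. Of the 30 genes, 0 passed the threshold, where 0.47% of all genes passed it. Without vehicle replicate 4, 1 gene was lower with Cpd1 (165 of all probesets called, against 94 with all mice). At an unadjusted p under 0.05, 3 genes were lower and 2 were higher with Cpd1, against 5.69% and 10.4% of all genes.

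**Figure D1:**
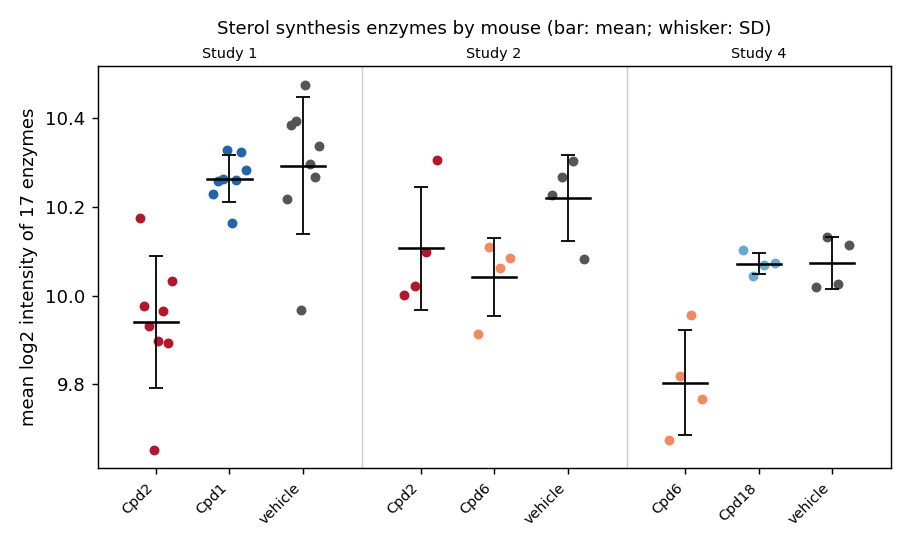
Mean log2 intensity of the 17 measured enzymes of sterol synthesis, with Ggps1 of a side branch among them, in each mouse (points). Mice are set by study and group, with the group mean (bar) and SD (whisker). Cpd2 mice of Study 1 averaged 9.94 and vehicle mice 10.29. Cpd6 mice of Study 4 averaged 9.80, Cpd18 mice 10.07 and vehicle mice 10.07.

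In Study 4, Cpd6 lowered 10 of the 30 genes and raised 0, against 8.88% of all genes lower and 3.3% higher. Of the 17 enzymes, 8 were lower, with a median log2 difference of -0.30 beside -0.04 over all genes. The mean log2 level of the enzymes was 9.80 ± 0.12 with Cpd6, 10.07 ± 0.02 with Cpd18 and 10.07 ± 0.06 with vehicle (SD, n = 4 each), and every Cpd6 mouse lay below every Cpd18 and vehicle mouse. The count of 10 was 6 when any of Cpd6 replicates 1, 2 and 4 and vehicle replicates 3 and 4 was left out. It was 5 in 1 fit over all 48 arrays. With the methods' t-test after adjustment, 5 genes were lower and 1 was higher. With array medians set equal, 8 were lower and 1 was higher, and with arrays weighted by quality, 11 were lower and 1 was higher. With Cpd18, 0 of the 30 genes passed the threshold and 0 had an unadjusted p under 0.05. Over all genes, 0.00653% passed the threshold with Cpd18, and 5.12% were lower and 3.19% were higher at the unadjusted p.

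In Study 2, the enzymes averaged below vehicle with both compounds, but 0 of the 30 genes passed the threshold with either. Their mean log2 level was 10.11 ± 0.14 in Cpd2 mice, 10.04 ± 0.09 in Cpd6 mice and 10.22 ± 0.10 in vehicle mice (SD, n = 4 each). With Cpd2, 0.202% of all genes passed, and at an unadjusted p under 0.05, 5 of the 30 genes were lower and 2 were higher, against 3.73% and 4.46% of all genes. With Cpd6, 0.574% of all genes passed, and at the unadjusted p 8 of the 30 genes were lower and 2 were higher, against 6.63% and 6.87% of all genes. The median log2 difference of the enzymes was -0.08 with Cpd2 and -0.20 with Cpd6, beside 0.03 and 0.01 over all genes. When arrays were weighted by their quality, limma called 8 genes with Cpd6 (7 lower, 1 higher), and 1 gene, which was lower, with Cpd2. Over all probesets, the weights gave 1081 calls with Cpd6 and 89 with Cpd2, against 109 and 37 without them.

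**Figure D2:**
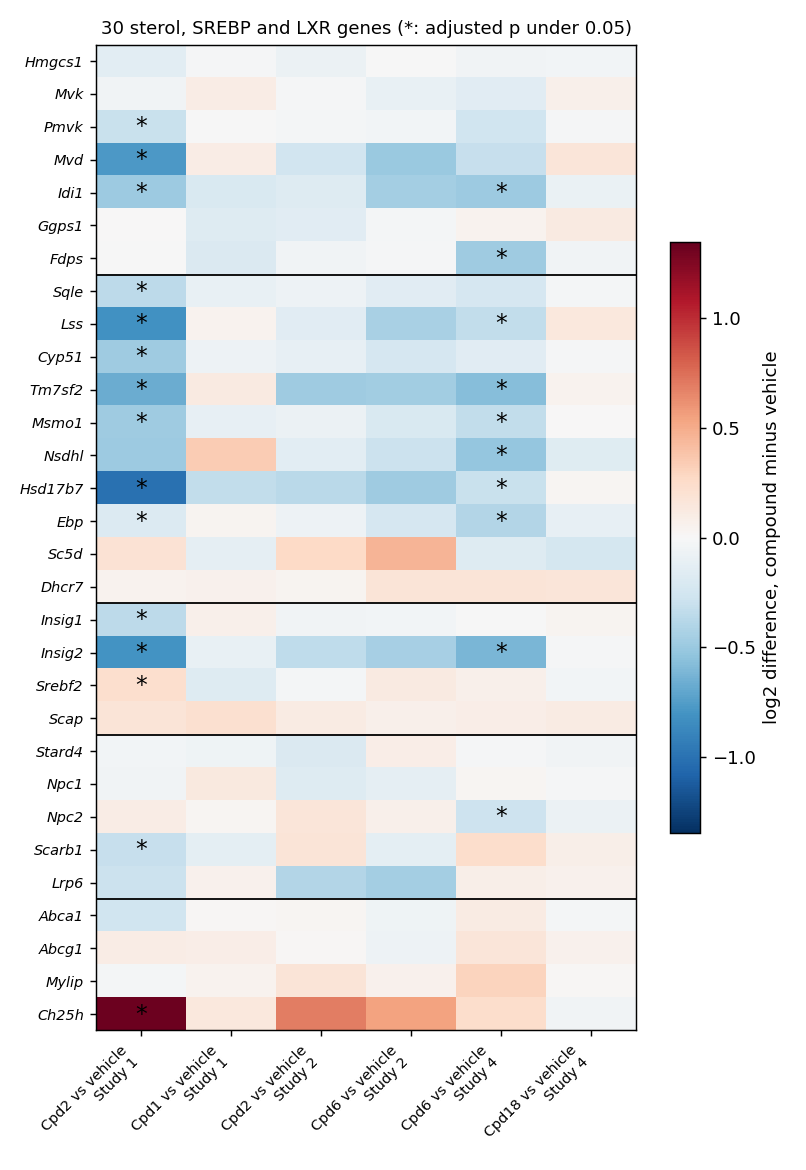
Log2 differences from vehicle (colour, compound minus vehicle) of the 30 measured genes (rows, in the order of their roles, lines between roles) in the 6 comparisons with vehicle (columns). A star marks an adjusted p under 0.05: 15 with Cpd2 in Study 1, 10 with Cpd6 in Study 4 and 0 in the other columns.

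The early part of the pathway, from acetyl-CoA to farnesyl diphosphate, was represented by 7 measured genes. These include Ggps1, which acts on a side branch after farnesyl diphosphate. With Cpd2 in Study 1, Pmvk, Mvd and Idi1 were lower, while Hmgcs1, Mvk, Ggps1 and Fdps did not pass the threshold. Mvd makes isopentenyl diphosphate from mevalonate diphosphate. Its log2 level ran over 8.05, 8.79 and 9.36 (lowest, median and highest) in Cpd2 mice of Study 1, over 9.49, 9.64 and 9.80 in Cpd1 mice, and over 9.22, 9.56 and 9.65 in vehicle mice. The ranges overlapped, since the highest Cpd2 mouse lay above the lowest vehicle mouse, and all Cpd2 mice lay below all Cpd1 mice. The log2 difference from vehicle was -0.77 ± 0.11 (SE, adjusted p = 3.35e-05, limma), a fold of 0.584.

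In Study 2, Mvd was at 9.07, 9.01, 9.09 and 9.68 with Cpd2, at 8.72, 9.12, 8.97 and 9.07 with Cpd6, and at 9.42, 9.55, 9.58 and 9.34 with vehicle. All Cpd6 mice were below all vehicle mice, and 1 Cpd2 mouse was above them all. The log2 differences were -0.26 ± 0.14 with Cpd2 (adjusted p = 0.759) and -0.50 ± 0.14 with Cpd6 (adjusted p = 0.144). In Study 4, Mvd was at 8.78, 9.29, 9.36 and 9.25 with Cpd6, at 9.53, 9.77, 9.68 and 9.60 with Cpd18, and at 9.43, 9.63, 9.24 and 9.62 with vehicle. The Cpd6 mice overlapped with vehicle and the log2 difference of -0.31 ± 0.12 did not pass (adjusted p = 0.113).

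Idi1 interconverts the isoprenoid building blocks isopentenyl and dimethylallyl diphosphate. The log2 level of Idi1 in Study 1 ran over 9.91, 10.29 and 10.57 in Cpd2 mice, 10.46, 10.58 and 10.65 in Cpd1 mice, and 10.51, 10.73 and 11.06 in vehicle mice. The Idi1 level in Study 4 was at 9.44, 9.59, 9.78 and 9.58 with Cpd6, at 10.11, 9.93, 9.99 and 9.98 with Cpd18, and at 10.11, 10.03, 10.09 and 10.12 with vehicle. Every Cpd6 mouse of Study 4 lay below every Cpd18 and vehicle mouse, while the Cpd2 and vehicle mice of Study 1 overlapped at their extremes. The log2 difference from vehicle was -0.49 ± 0.09 with Cpd2 in Study 1 (adjusted p = 0.00065) and -0.49 ± 0.08 with Cpd6 in Study 4 (adjusted p = 0.00221). In Study 2, Idi1 was at 10.11, 10.10, 10.41 and 9.86 with Cpd2, at 9.82, 9.83, 9.77 and 9.93 with Cpd6, and at 10.31, 10.40, 10.39 and 10.09 with vehicle. All Cpd6 mice of Study 2 were below all vehicle mice, with a log2 difference of -0.46 ± 0.11 that missed the threshold (adjusted p = 0.0914).

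Fdps, which makes farnesyl diphosphate, was lower with Cpd6 in Study 4 and not with the other compounds, and it is given by mouse because of that, chosen after its values were seen. It was at 11.13, 11.32, 11.53 and 11.35 with Cpd6, at 11.70, 11.85, 11.59 and 11.94 with Cpd18, and at 11.77, 11.90, 11.73 and 11.88 with vehicle. The Cpd6 mice lay below all others, and the log2 difference from vehicle was -0.48 ± 0.09 (adjusted p = 0.00516). With Cpd2 in Study 1 the difference was 0.00 ± 0.11 and with Cpd6 in Study 2 it was -0.02 ± 0.09. The difference between the Cpd6 effects of Studies 2 and 4 was 0.47 on the log2 scale (95% confidence interval 0.10 to 0.83) and did not pass the adjustment (adjusted p = 0.458).

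The later part of the pathway, from squalene to cholesterol, was represented by 10 measured genes. Of these, 7 were lower with Cpd2 in Study 1 (Sqle, Lss, Cyp51, Tm7sf2, Msmo1, Hsd17b7 and Ebp) and 6 with Cpd6 in Study 4 (Lss, Tm7sf2, Msmo1, Nsdhl, Hsd17b7 and Ebp). Their median log2 difference was -0.48 with Cpd2 in Study 1 and -0.32 with Cpd6 in Study 4. Sc5d and Dhcr7, which act in the last steps before cholesterol, passed in neither. Sc5d was named by 3 probesets that did not share a sign, with log2 differences between -0.29 and 0.20 with Cpd2 in Study 1, so no direction was read for it.

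Hsd17b7 reduces the ketone left at the sterol ring when methyl groups are removed. In Study 1 its log2 level ran over 9.93, 10.34 and 10.82 in Cpd2 mice, 10.80, 11.04 and 11.19 in Cpd1 mice, and 10.63, 11.46 and 11.64 in vehicle mice. The log2 difference with Cpd2 was -1.01 ± 0.12 (adjusted p = 4.17e-06), a fold of 0.497 and the lowest difference among the 30 genes in Study 1. The vehicle mouse at 10.63 stood apart from the other 7, the next lying at 11.28. In Study 2, Hsd17b7 was at 10.50, 10.55, 10.88 and 10.95 with Cpd2, at 10.61, 10.61, 10.40 and 10.78 with Cpd6, and at 11.06, 11.19, 11.32 and 10.76 with vehicle. Both compounds overlapped with vehicle through its lowest mouse, and the log2 differences of -0.36 ± 0.13 and -0.48 ± 0.13 did not pass (adjusted p = 0.477 and 0.13). In Study 4 it was at 10.90, 10.64, 10.64 and 10.76 with Cpd6, at 11.19, 10.91, 11.22 and 10.94 with Cpd18, and at 10.92, 11.12, 11.05 and 11.06 with vehicle. The Cpd6 mice lay below the others, and the log2 difference was -0.30 ± 0.08 (adjusted p = 0.0344). The call was lost without any 1 of Cpd6 replicates 2, 3 and 4 or vehicle replicates 2, 3 and 4, and the other Hsd17b7 probeset missed the threshold there (-0.36 ± 0.12, adjusted p = 0.0592).

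Tm7sf2 is a sterol reductase that saturates the ring after the first methyl group is removed. The log2 level of Tm7sf2 in Study 1 ran over 7.61, 7.91 and 8.29 in Cpd2 mice, 8.40, 8.70 and 9.11 in Cpd1 mice, and 7.93, 8.76 and 8.89 in vehicle mice. The Tm7sf2 level in Study 4 was at 7.29, 7.53, 7.55 and 7.45 with Cpd6, at 8.06, 8.16, 8.07 and 8.02 with Cpd18, and at 8.01, 8.17, 7.85 and 8.10 with vehicle. Cpd6 mice of Study 4 and Cpd2 mice of Study 1 lay below every mouse of the skin-negative compound in the same study. The log2 difference from vehicle was -0.67 ± 0.12 with Cpd2 (adjusted p = 0.000512) and -0.58 ± 0.10 with Cpd6 (adjusted p = 0.00322). In Study 2, Tm7sf2 was at 7.66, 7.67, 7.82 and 8.13 with Cpd2, at 7.83, 7.76, 7.79 and 7.95 with Cpd6, and at 8.28, 8.36, 8.56 and 8.02 with vehicle. The differences of -0.48 ± 0.14 and -0.47 ± 0.14 were close to those of the other studies in size, and neither passed (adjusted p = 0.356 and 0.157).

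**Figure D3:**
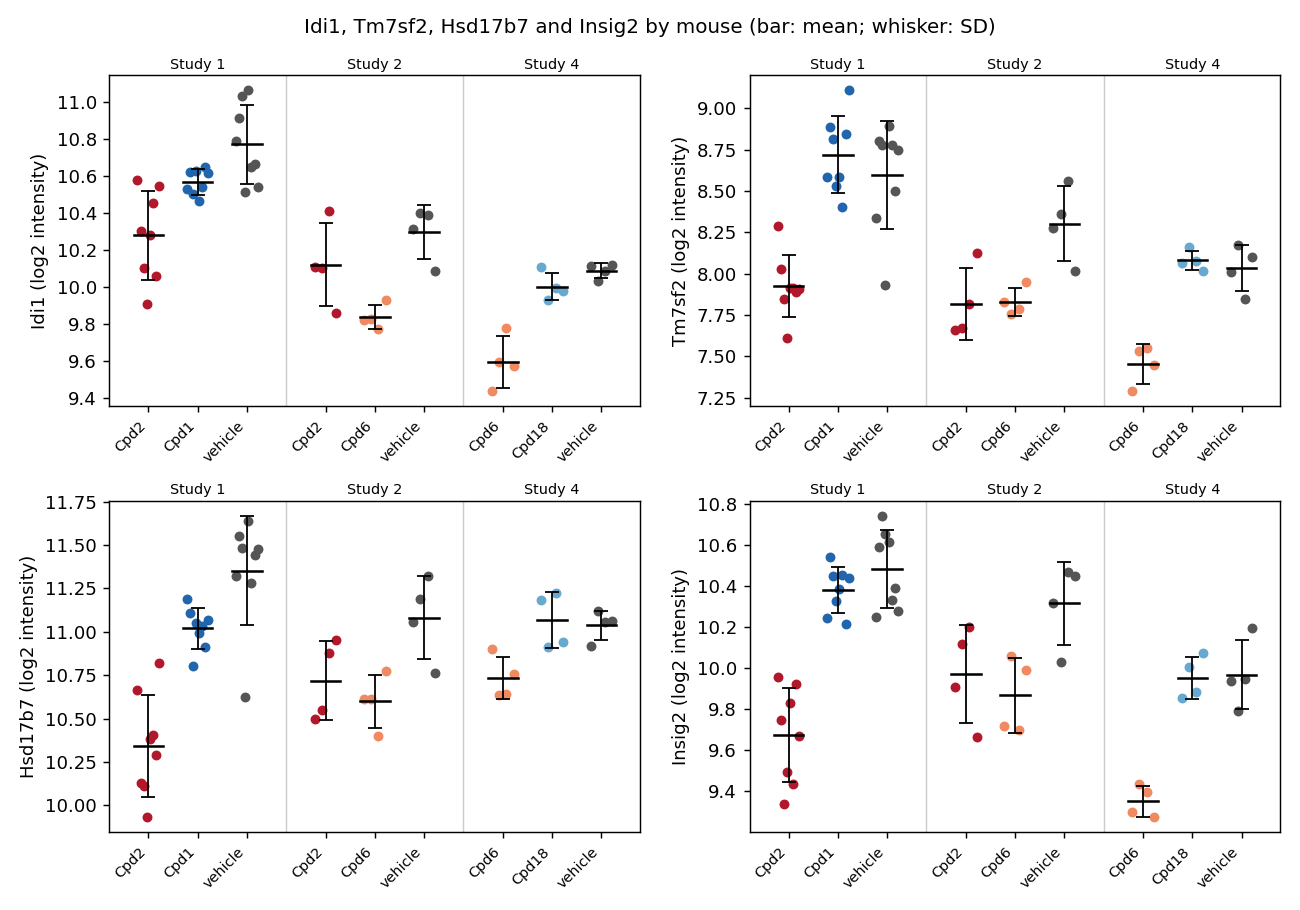
Log2 intensity of Idi1, Tm7sf2, Hsd17b7 and Insig2 in each mouse (points) by study and group, with the mean (bar) and SD (whisker) on axes that do not start at 0. Cpd6 mice of Study 4 lie below all Cpd18 and vehicle mice in each panel, and Cpd2 mice of Study 1 do so for Insig2.

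Lss closes squalene epoxide to lanosterol. In Study 1 its log2 level ran over 9.01, 9.72 and 10.14 in Cpd2 mice, 10.25, 10.47 and 10.94 in Cpd1 mice, and 9.73, 10.60 and 10.70 in vehicle mice. The log2 difference with Cpd2 was -0.82 ± 0.14 (adjusted p = 0.000301), and the second Lss probeset was lower too (-0.77 ± 0.14, adjusted p = 0.000632). In Study 2, Lss was at 10.05, 10.004, 10.41 and 10.62 with Cpd2, at 9.53, 10.25, 9.94 and 10.21 with Cpd6, and at 10.40, 10.60, 10.51 and 10.19 with vehicle, and neither difference passed (adjusted p = 0.907 and 0.29). In Study 4 it was at 9.82, 10.05, 10.28 and 9.87 with Cpd6, at 10.52, 10.54, 10.34 and 10.53 with Cpd18, and at 10.16, 10.41, 10.27 and 10.52 with vehicle. Cpd6 and vehicle overlapped, and the log2 difference of -0.34 ± 0.10 lay at the edge of the threshold (adjusted p = 0.0475). It was lost in 7 of 9 alternative settings and without any 1 of Cpd6 replicates 1, 2 and 4 or vehicle replicates 2, 3 and 4, and the second probeset did not pass (-0.23 ± 0.10, adjusted p = 0.164).

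Cyp51 removes the first methyl group of lanosterol. The log2 level of Cyp51 in Study 1 ran over 11.54, 11.89 and 12.03 in Cpd2 mice, 12.12, 12.29 and 12.43 in Cpd1 mice, and 11.98, 12.42 and 12.49 in vehicle mice. The log2 difference with Cpd2 was -0.48 ± 0.07 (adjusted p = 4.99e-05). In Study 2 it was at 12.06, 12.16, 12.22 and 12.27 with Cpd2, at 11.98, 12.10, 11.99 and 12.17 with Cpd6, and at 12.32, 12.26, 12.39 and 12.15 with vehicle. The Cyp51 level in Study 4 was at 11.71, 11.86, 12.02 and 11.89 with Cpd6, at 11.99, 11.93, 12.05 and 12.03 with Cpd18, and at 11.92, 12.08, 11.95 and 12.11 with vehicle, and the groups overlapped. The Cyp51 probesets differed in Study 4: the difference of the one with the higher mean was -0.15 ± 0.07 (adjusted p = 0.16), and that of the other was -0.50 ± 0.10 (adjusted p = 0.0104). In Study 1 the second probeset gave -0.93 ± 0.13 (adjusted p = 1.64e-05).

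Msmo1 oxidises the remaining methyl groups, and Ebp moves the double bond of the sterol ring. In Study 1, the log2 level of Msmo1 ran over 11.03, 11.31 and 11.46 in Cpd2 mice, 11.45, 11.67 and 11.78 in Cpd1 mice, and 11.15, 11.80 and 12.14 in vehicle mice (difference of Cpd2 from vehicle -0.48 ± 0.09, adjusted p = 0.000942). In Study 4, Msmo1 was at 10.81, 10.79, 10.95 and 10.82 with Cpd6, at 11.34, 11.14, 11.16 and 11.05 with Cpd18, and at 11.17, 11.11, 11.14 and 11.25 with vehicle. Every Cpd6 mouse lay below the others, with a log2 difference of -0.33 ± 0.07 (adjusted p = 0.0103). In Study 2 it was at 11.22, 11.51, 11.40 and 11.50 with Cpd2, at 11.19, 11.41, 11.16 and 11.36 with Cpd6, and at 11.63, 11.52, 11.61 and 11.18 with vehicle, with overlap of all groups.

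For Ebp in Study 1, the log2 level ran over 10.46, 10.51 and 10.63 in Cpd2 mice, 10.65, 10.72 and 10.87 in Cpd1 mice, and 10.46, 10.74 and 10.84 in vehicle mice. In Study 2, Ebp was at 10.51, 10.59, 10.53 and 11.17 with Cpd2, at 10.40, 10.70, 10.48 and 10.57 with Cpd6, and at 10.87, 10.80, 10.82 and 10.59 with vehicle. In Study 4 it was at 9.85, 9.89, 9.99 and 9.77 with Cpd6, at 10.03, 10.31, 9.94 and 10.33 with Cpd18, and at 10.26, 10.36, 9.98 and 10.48 with vehicle. Compound and vehicle mice overlapped in all 3 studies. The log2 differences from vehicle were -0.18 ± 0.05 with Cpd2 in Study 1 (adjusted p = 0.0245) and -0.39 ± 0.11 with Cpd6 in Study 4 (adjusted p = 0.0365). The Study 4 call was lost in 7 of the 8 fits that left out 1 mouse, all but the one without vehicle replicate 3, and the Study 1 call without Cpd2 replicate 4, vehicle replicate 2 or vehicle replicate 5.

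Of the 4 measured genes that control SREBP cleavage, Insig2 was lower with Cpd2 in Study 1 and with Cpd6 in Study 4. Its product binds SCAP. In Study 1 its log2 level ran over 9.34, 9.71 and 9.96 in Cpd2 mice, 10.22, 10.41 and 10.54 in Cpd1 mice, and 10.25, 10.49 and 10.74 in vehicle mice. The Insig2 level in Study 4 was at 9.30, 9.43, 9.40 and 9.28 with Cpd6, at 9.86, 10.004, 9.88 and 10.07 with Cpd18, and at 9.94, 9.79, 9.95 and 10.20 with vehicle. In both studies all mice on the skin-positive compound lay below all other mice. In Study 1 it was the only one of the 30 genes for which all Cpd2 mice lay below all vehicle mice (0.529% of all genes did), and in Study 4 it was 1 of 7 for which all Cpd6 mice lay below all vehicle mice (13.9% of all genes). The log2 difference was -0.81 ± 0.09 with Cpd2 (adjusted p = 1.53e-06) and -0.62 ± 0.09 with Cpd6 (adjusted p = 0.00139), and the second Insig2 probeset was lower in both (-0.68 and -0.52). In Study 2 it was at 9.91, 10.12, 10.20 and 9.66 with Cpd2, at 9.72, 10.06, 9.70 and 9.99 with Cpd6, and at 10.32, 10.03, 10.47 and 10.45 with vehicle. The Study 2 groups overlapped through 1 vehicle mouse, and the log2 differences of -0.34 ± 0.13 and -0.45 ± 0.13 did not pass (adjusted p = 0.544 and 0.169).

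Insig1 is itself an SREBP target. The log2 level of Insig1 in Study 1 ran over 12.04, 12.48 and 12.64 in Cpd2 mice, 12.73, 12.86 and 12.94 in Cpd1 mice, and 12.49, 12.82 and 12.94 in vehicle mice. The log2 difference with Cpd2 was -0.35 ± 0.08 (adjusted p = 0.00298). In Study 2, Insig1 was at 12.84, 12.79, 12.84 and 12.73 with Cpd2, at 12.73, 12.68, 13.06 and 12.75 with Cpd6, and at 12.81, 12.97, 12.90 and 12.69 with vehicle. In Study 4 it was at 12.61, 12.62, 12.75 and 12.70 with Cpd6, at 12.78, 12.60, 12.77 and 12.69 with Cpd18, and at 12.62, 12.76, 12.76 and 12.57 with vehicle. The groups of Studies 2 and 4 overlapped, and the log2 difference with Cpd6 in Study 4 was 0.00 ± 0.06 (adjusted p = 0.973).

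Srebf2, which encodes SREBP-2 and was read by mouse after its values were seen, was higher with Cpd2 in Study 1. Its log2 level ran over 11.38, 11.46 and 11.50 in Cpd2 mice, 10.84, 11.09 and 11.27 in Cpd1 mice, and 11.05, 11.19 and 11.54 in vehicle mice. The log2 difference from vehicle was 0.22 ± 0.07 (adjusted p = 0.0241), but the other Srebf2 probesets gave 0.11 and 0.12 and did not pass (adjusted p = 0.575 and 0.247). Scap did not pass in any comparison with vehicle.

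Among the 5 genes of cholesterol uptake and transport, Scarb1 and Npc2 were the only ones to pass, each in 1 comparison. Scarb1 is the receptor of high-density lipoprotein. In Study 1 its log2 level ran over 9.54, 9.82 and 10.05 in Cpd2 mice, 9.56, 10.10 and 10.16 in Cpd1 mice, and 9.996, 10.09 and 10.24 in vehicle mice, a log2 difference of -0.31 ± 0.08 (adjusted p = 0.0125). In Study 2, Scarb1 was at 10.21, 9.90, 9.80 and 9.95 with Cpd2, at 9.42, 9.60, 9.79 and 9.82 with Cpd6, and at 9.61, 9.80, 9.83 and 9.90 with vehicle. The Scarb1 level in Study 4 was at 10.47, 10.27, 10.17 and 10.29 with Cpd6, at 10.23, 9.85, 10.22 and 10.24 with Cpd18, and at 9.85, 10.50, 10.08 and 9.81 with vehicle. The groups of Studies 2 and 4 overlapped and the log2 difference with Cpd6 in Study 4 was 0.24 ± 0.13 (adjusted p = 0.263).

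Npc2 carries cholesterol out of the lysosome. The log2 level of Npc2 in Study 1 ran over 11.61, 11.72 and 11.93 in Cpd2 mice, 11.57, 11.65 and 11.92 in Cpd1 mice, and 11.13, 11.70 and 11.89 in vehicle mice, with overlap of all groups. In Study 2 it was at 11.41, 11.85, 11.53 and 11.46 with Cpd2, at 11.58, 11.33, 11.55 and 11.39 with Cpd6, and at 11.46, 11.49, 11.53 and 11.11 with vehicle. In Study 4 it was at 11.14, 11.12, 11.21 and 11.24 with Cpd6, at 11.42, 11.47, 11.31 and 11.31 with Cpd18, and at 11.28, 11.57, 11.57 and 11.40 with vehicle. All Cpd6 mice of Study 4 lay below the others, and the log2 difference from vehicle was -0.28 ± 0.07 (adjusted p = 0.0246). The call was lost when Cpd6 replicate 1, Cpd6 replicate 2, vehicle replicate 2 or vehicle replicate 3 was left out, and the second probeset did not pass (-0.30 ± 0.14, adjusted p = 0.174). Macrophage and monocyte markers, of which 7 were measured, averaged 7.12 with Cpd6, 7.19 with Cpd18 and 7.68 with vehicle in the same study, and their part in the Npc2 difference was not tested.

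Lrp6, a Wnt co-receptor of the lipoprotein receptor family, was on the list of markers that the study chose on the mice of Studies 1 and 2. Its direction there is not independent evidence, while Study 4 was not used for that choice. In Study 1 its log2 level ran over 7.39, 7.46 and 7.65 in Cpd2 mice, 7.16, 7.78 and 8.46 in Cpd1 mice, and 7.50, 7.84 and 8.03 in vehicle mice. In Study 2 it was at 7.77, 7.39, 7.36 and 7.51 with Cpd2, at 7.29, 7.35, 7.52 and 7.64 with Cpd6, and at 7.92, 7.91, 7.88 and 7.91 with vehicle. Both compounds of Study 2 lay wholly below vehicle. Lrp6 was the only one of the 30 genes to do so with Cpd2, where 1.41% of all genes did, and 1 of 4 with Cpd6, where 3.07% of all genes did. The study chose Lrp6 for its difference from vehicle in these same mice, so this separation does not set it apart from the other genes. The Lrp6 level in Study 4 was at 8.42, 8.37, 8.60 and 8.47 with Cpd6, at 8.38, 8.28, 8.43 and 8.69 with Cpd18, and at 8.51, 8.41, 8.29 and 8.35 with vehicle. The log2 differences from vehicle were -0.29 ± 0.12 with Cpd2 in Study 1 (adjusted p = 0.133), -0.40 ± 0.12 with Cpd2 and -0.46 ± 0.12 with Cpd6 in Study 2 (adjusted p = 0.412 and 0.126), and 0.08 ± 0.10 with Cpd6 in Study 4 (adjusted p = 0.657). The second Lrp6 probeset passed with Cpd2 in Study 1 (-0.39 ± 0.13, adjusted p = 0.0465).

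Of the LXR branch, Ch25h was the gene that rose. It encodes cholesterol 25-hydroxylase, which makes an oxysterol that retains SREBP and is known from activated macrophages. The log2 level of Ch25h in Study 1 ran over 5.69, 6.17 and 6.98 in Cpd2 mice, 4.81, 5.09 and 5.36 in Cpd1 mice, and 4.42, 4.94 and 5.26 in vehicle mice. All Cpd2 mice lay above all others, and the log2 difference from vehicle was 1.33 ± 0.18 (adjusted p = 1.56e-05), a fold of 2.51. The 4 highest were replicates 2, 3, 4 and 7, at 6.98, 6.97, 6.69 and 6.43, while the other Cpd2 mice lay between 5.69 and 5.91. The same 4 mice had the lowest skeletal muscle markers, and without them the log2 difference was 0.84 ± 0.15 (adjusted p = 0.00228). In Study 2, Ch25h was at 6.11, 6.04, 5.22 and 5.92 with Cpd2, at 5.54, 5.70, 5.69 and 5.80 with Cpd6, and at 5.26, 5.08, 5.10 and 5.10 with vehicle. All Cpd6 mice and 3 of the 4 Cpd2 mice were above all vehicle mice, but the log2 differences of 0.69 ± 0.19 and 0.55 ± 0.19 did not pass (adjusted p = 0.319 and 0.232). In Study 4 it was at 5.25, 5.25, 5.09 and 4.98 with Cpd6, at 4.85, 4.54, 5.01 and 5.02 with Cpd18, and at 4.71, 5.36, 4.77 and 4.78 with vehicle, and the groups overlapped. In Study 1, the macrophage and monocyte markers averaged 8.67 in Cpd2 mice, 8.54 in Cpd1 mice and 8.56 in vehicle mice, and 0 of the 7 passed. Within the Cpd2 group their level was 8.70, 9.01, 8.89 and 8.89 in replicates 2, 3, 4 and 7, and between 8.23 and 8.65 in the others. Their part in the Ch25h difference was not tested.

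The 3 other measured genes of this branch did not pass in any comparison. Mylip, an LXR target that marks lipoprotein receptors for degradation, ran over 7.86, 8.01 and 8.15 in Cpd2 mice of Study 1, 7.78, 8.06 and 8.38 in Cpd1 mice, and 7.86, 7.97 and 8.42 in vehicle mice. In Study 2 it was at 8.43, 8.15, 7.92 and 8.28 with Cpd2, at 8.02, 8.23, 8.14 and 7.95 with Cpd6, and at 8.11, 8.03, 8.04 and 7.92 with vehicle. In Study 4, Mylip was at 8.27, 8.05, 8.13 and 8.13 with Cpd6, at 8.01, 7.58, 7.92 and 7.93 with Cpd18, and at 7.80, 7.81, 7.90 and 7.86 with vehicle. All Cpd6 mice of Study 4 were above all others, and the log2 difference of 0.30 ± 0.10 missed the threshold (adjusted p = 0.0629). The cholesterol exporters Abca1 and Abcg1 had log2 differences of -0.27 ± 0.13 and 0.10 ± 0.08 with Cpd2 in Study 1 and of 0.11 ± 0.12 and 0.16 ± 0.09 with Cpd6 in Study 4.

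**Figure D4:**
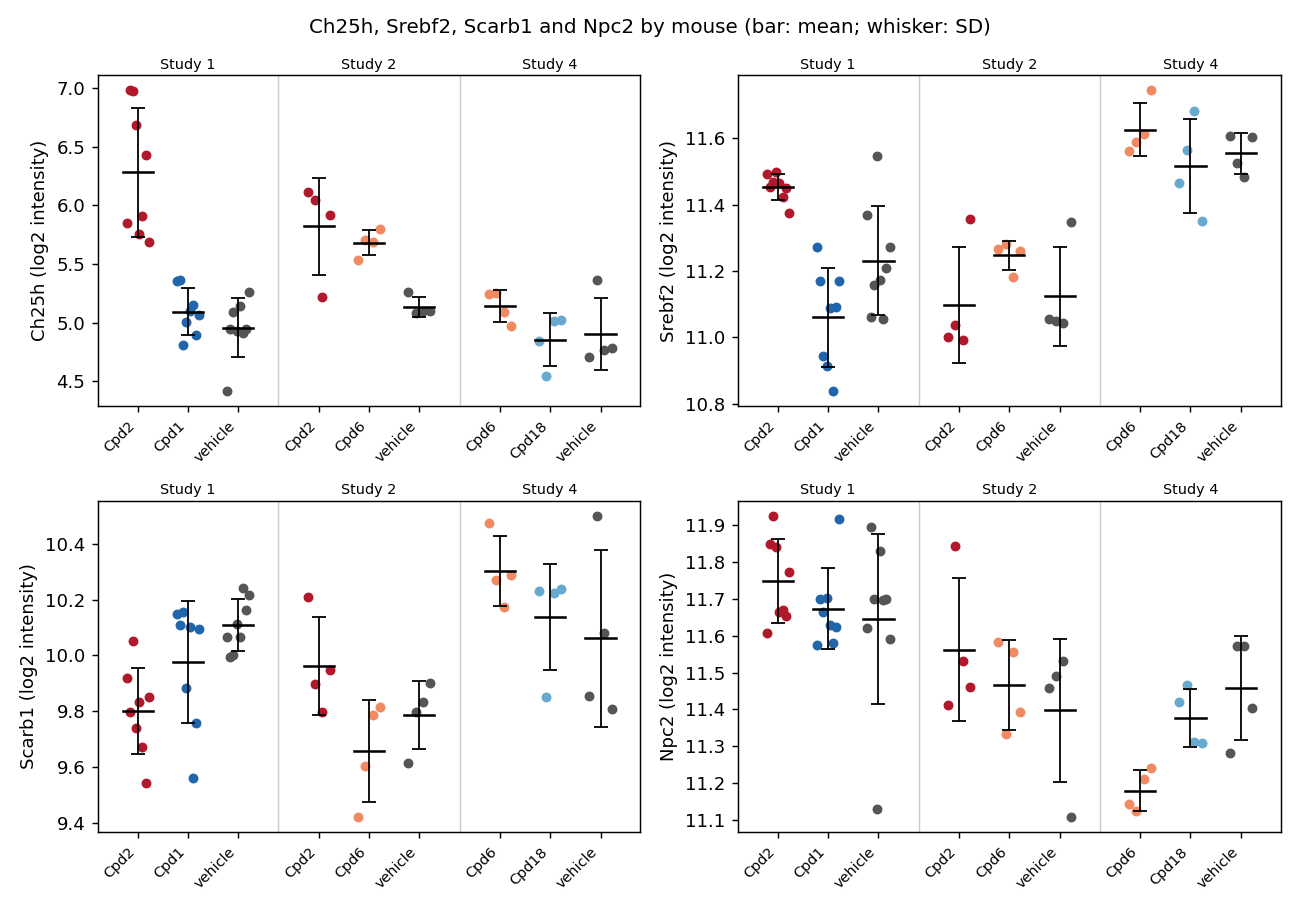
Log2 intensity of Ch25h, Srebf2, Scarb1 and Npc2 in each mouse (points) by study and group, with the mean (bar) and SD (whisker) on axes that do not start at 0. All Cpd2 mice of Study 1 lie above all Cpd1 and vehicle mice for Ch25h, and all Cpd6 mice of Study 4 lie below all Cpd18 and vehicle mice for Npc2.

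The compounds were then compared directly. In Study 1, 12 of the 30 genes were lower and 2 were higher with Cpd2 than with Cpd1, against 10.1% and 10.3% of all genes. Among them, Mvd differed by -0.88 on the log2 scale (95% confidence interval -1.11 to -0.65, adjusted p = 9.35e-06), Insig2 by -0.71 (-0.89 to -0.52, adjusted p = 1.1e-05) and Ch25h by 1.19 (0.82 to 1.55, adjusted p = 9.41e-05). Nsdhl, a further enzyme of methyl group removal, was lower with Cpd2 than with Cpd1 (-0.84 ± 0.17, adjusted p = 0.00142), but missed the threshold against vehicle (-0.49 ± 0.17, adjusted p = 0.0519). These comparisons share the Cpd2 mice with those above.

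In Study 4, 5 of the 30 genes were lower and 0 were higher with Cpd6 than with Cpd18, 2 compounds of the same structural series, against 0.64% and 0.0522% of all genes. The genes were Idi1 (-0.41, 95% confidence interval -0.57 to -0.24, adjusted p = 0.0223), Fdps (-0.43, -0.62 to -0.25, adjusted p = 0.0384), Tm7sf2 (-0.63, -0.83 to -0.42, adjusted p = 0.00418), Msmo1 (-0.33, -0.48 to -0.19, adjusted p = 0.0428) and Insig2 (-0.60, -0.79 to -0.42, adjusted p = 0.00279). For 9 of the 30 genes all Cpd6 mice lay below all Cpd18 mice, against 4.79% of all genes. The count of 5 fell to 2 without any 1 of Cpd6 replicates 1, 2 and 4, to 3 without Cpd18 replicate 2, 3 or 4, and to 0 with the methods' t-test after adjustment. Idi1 was lost without Cpd6 replicate 1, 2 or 4 or Cpd18 replicate 3 or 4, and Msmo1 without Cpd6 replicate 1, 2 or 4 or Cpd18 replicate 1, 2 or 3. Tm7sf2 and Insig2 were called in all 8 fits that left out 1 mouse.

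In Study 2, which held both skin-positive compounds, 0 of the 30 genes differed between Cpd2 and Cpd6 (0% of all genes did), with 1 lower and 2 higher at an unadjusted p under 0.05, against 3.17% and 3.74% of all genes. The intervals do not show that the compounds act alike: the Tm7sf2 difference of Cpd2 from Cpd6 was -0.01 (95% confidence interval -0.30 to 0.28), that of Insig2 0.11 (-0.18 to 0.39) and that of Lss 0.29 (-0.06 to 0.64).

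The median log2 difference of the enzymes with Cpd2 was -0.35 in Study 1 and -0.08 in Study 2, and the difference between the studies was tested gene by gene in 1 fit over all arrays. Of the 30 genes, 0 passed (0.783% of all genes did), while 9 were lower and 2 were higher at an unadjusted p under 0.05, where 16.1% of all genes passed in either direction. For Hsd17b7 the difference of the effects was -0.65 (95% confidence interval -1.02 to -0.27, adjusted p = 0.0729) and for Cyp51 it was -0.37 (-0.59 to -0.16, adjusted p = 0.0729). The count rose to 4 without vehicle replicate 4 of Study 1, to 3 without Cpd2 replicate 1 of Study 1, and to 1 without Cpd2 replicate 8 of Study 1 or Cpd2 replicate 4 of Study 2. The calls over all probesets rose as well, to 1521 without vehicle replicate 4 and 529 without Cpd2 replicate 1 of Study 1, against 209 with all mice. For Cpd6, the effects of Studies 2 and 4 differed for 0 of the 30 genes (0% of all genes), with 2 lower and 3 higher at the unadjusted p, where 9.75% of all genes passed.

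Related genes outside the list showed the following. Of 18 measured further sterol genes (22 listed), 3 were lower and 1 was higher with Cpd2 in Study 1, and 1 was lower with Cpd6 in Study 4, where 8.88% of all genes were lower. In Study 1, 7.15% of all genes were lower and 8.69% higher. The 1 higher gene in Study 1 and the 1 lower gene in Study 4 were no larger a share than the background. The 3 lower genes in Study 1 were a larger share. The median log2 difference of the list in Study 1 was 0.10, with 12 genes above 0 and 6 below. The gene lower in both studies was Lpcat3, a phospholipid acyltransferase and LXR target, with log2 differences of -0.77 ± 0.11 (adjusted p = 5.03e-05) and -0.35 ± 0.09 (adjusted p = 0.0206). Of 11 fatty acid genes known as SREBP-1 targets, 6 were lower with Cpd2 in Study 1, with a median log2 difference of -0.41, and 1 was lower with Cpd6 in Study 4, with a median of 0.01, a share close to that of all genes. Acss2, which makes acetyl-CoA from acetate, was lower in both (-1.14 ± 0.16, adjusted p = 2.89e-05, and -0.64 ± 0.11, adjusted p = 0.00368). Fasn, fatty acid synthase, passed with Cpd2 in Study 1 (-0.82 ± 0.24, adjusted p = 0.0208). With Cpd1 and Cpd18, 0 genes of either list passed.

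Group means of sebaceous gland markers were below vehicle with the skin-positive compounds, as were those of the enzymes. The mean log2 level of 11 such markers in Study 1 was 8.56 ± 0.40 for Cpd2 mice, 9.47 ± 0.06 for Cpd1 mice and 9.41 ± 0.32 for vehicle mice (SD, n = 8 each). Study 2 had 8.89 ± 0.14 for Cpd2 mice, 8.65 ± 0.20 for Cpd6 mice and 9.23 ± 0.16 for vehicle mice, and Study 4 had 8.55 ± 0.16 for Cpd6 mice, 9.12 ± 0.09 for Cpd18 mice and 9.09 ± 0.05 for vehicle mice (SD, n = 4 each). Of the 11, 5 were lower with Cpd2 in Study 1 and 6 with Cpd6 in Study 4, while Study 2 had 1 lower with Cpd2 and 2 lower with Cpd6. The 11 were Scd3, Awat1, Awat2, Elovl3, Far2, Mc5r, Fa2h, Cidea, Pparg, Plin2 and Mgst1. Their log2 differences with Cpd2 in Study 1 ran from -3.68 to -0.07, with a median of -0.63. In Study 2 they ran from -1.81 to 0.17 with Cpd2 (median -0.26, 4 markers above 0). With Cpd6 they ran from -2.37 to 0.03 in Study 2 (median -0.53, 1 marker above 0) and from -2.11 to -0.06 in Study 4 (median -0.23). The group means therefore do not show that every marker fell. Scd3 was on the list of markers that the study chose on the mice of Studies 1 and 2, so its direction there is not independent evidence. The vehicle mouse of Study 1 with the lowest enzyme mean, replicate 4 at 9.97, also had the lowest marker mean of its group, at 8.71, and the Cpd2 mouse with the lowest enzyme mean, replicate 4 at 9.65, had the lowest marker mean, at 7.94. In Study 2, Cpd2 replicate 4 went the other way. Its enzyme mean of 10.306 lay above all vehicle mice (highest 10.303), and its marker mean of 8.92 lay below them all (lowest 9.01). Vehicle replicate 4 of Study 1 stood at the end of its group for other marker means too. It was the lowest for adipocyte (9.908), skeletal muscle (10.075) and macrophage and monocyte markers (7.96). It was the highest for hair follicle growth (10.938) and dividing cell markers (8.34). In whole skin, fewer gland cells and less RNA per cell cannot be told apart, and the part of the gland markers in the enzyme differences was not tested.

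**Figure D5:**
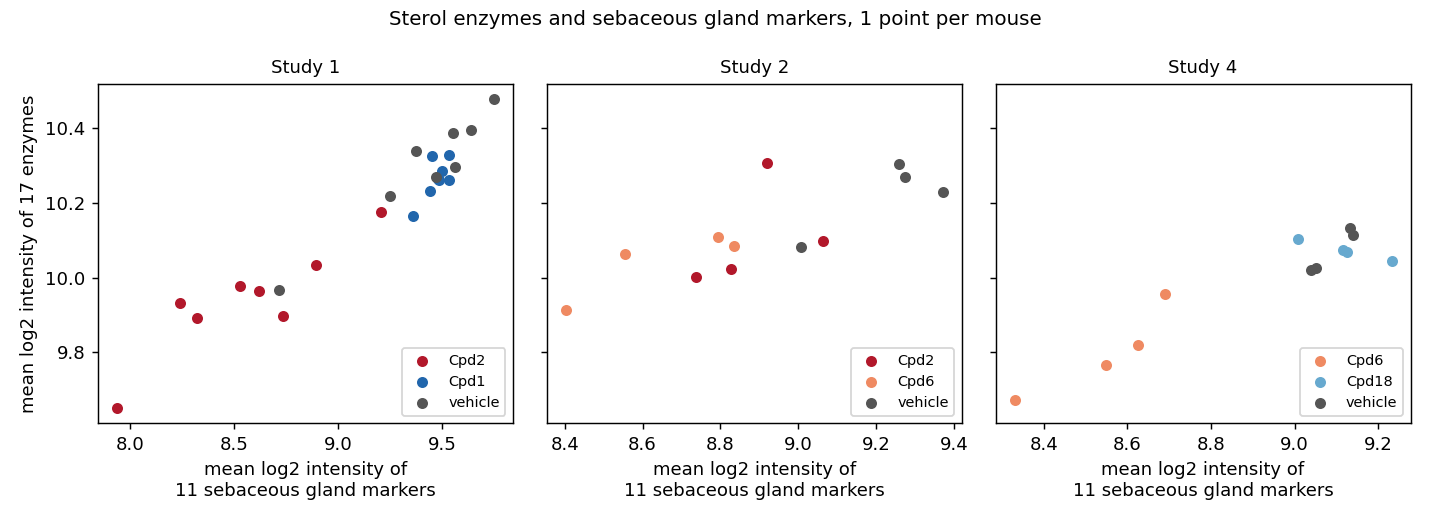
Mean log2 intensity of the 17 enzymes (vertical axis) against that of 11 sebaceous gland markers (horizontal axis), 1 point per mouse, by study. In Study 1 the lowest point is Cpd2 replicate 4 (7.94, 9.65), and vehicle replicate 4 (8.71, 9.97) lies among the Cpd2 mice. In Study 4 the Cpd6 mice lie apart from the Cpd18 and vehicle mice on both axes.

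Other tissue markers differed between groups as well. In Study 1, all 19 measured skeletal muscle markers were lower with Cpd2, and their mean level was 9.07 ± 2.52 in Cpd2 mice, 11.59 ± 0.24 in Cpd1 mice and 11.77 ± 0.69 in vehicle mice, with Cpd2 replicates 2, 3, 4 and 7 at 8.16, 5.43, 7.33 and 6.42. Without these 4 mice, 8 of the 30 genes were lower and 1 was higher with Cpd2, against 1.57% and 2.53% of all genes, 7 of the 17 enzymes were lower with a median of -0.31, and 1 of the 19 muscle markers was lower. Among the genes that no longer passed, the log2 difference was -0.31 for Idi1 and -0.20 for Insig1, both smaller in size than with all mice, and -0.19 for Ebp and -0.29 for Scarb1, close to the values with all mice (adjusted p = 0.0809, 0.138, 0.162 and 0.118). With the muscle marker mean as a covariate, 5 genes were lower and 1 was higher, and 930 of all probesets were called, against 3769 without it. In Study 4, 7 hair follicle growth markers averaged 4.81 ± 1.01 with Cpd6, 8.05 ± 2.32 with Cpd18 and 8.47 ± 2.92 with vehicle, and in Study 2 they averaged 5.61 ± 1.48 in Cpd2 mice, 4.85 ± 0.97 in Cpd6 mice and 8.56 ± 2.82 in vehicle mice. With their mean as a covariate, 5 genes were lower with Cpd6 than with vehicle in Study 4 (450 of all probesets called, against 3090 without it) and 2 than with Cpd18 (93 against 141). These sets of mice and covariates were chosen after the data were seen. Of 10 differentiated keratinocyte markers, 7 were higher with Cpd2 in Study 1, where their mean level was 11.76 in Cpd2 mice, 11.40 in Cpd1 mice and 11.36 in vehicle mice. Of the 7 macrophage and monocyte markers, 5 were lower with Cpd6 than with vehicle in Study 4, and 5 of the 19 muscle markers and 3 of the 10 keratinocyte markers were higher. Of 8 adipocyte markers, 0 passed in any comparison with vehicle. The part of these markers in the differences of the sterol genes was not tested.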

How the data were processed

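RNA from whole skin was amplified and hybridised to a custom Affymetrix array, and the authors deposited intensities normalised by RMA, on a linear scale, for 38385 probesets on 48 arrays. The deposited intensities ran from 1.595 to 13570, with array medians of 26.39 to 30.78 and correlations between arrays of 0.9456 to 0.9957, and the number of arrays limits the precision. Genes were named through the platform's table: 24478 probesets name 1 gene, 65 several and 13842 none. Log2 values were taken, probesets below the 25th percentile of the mean were left out, and the probeset with the highest mean stood for its gene. Each study was fitted with limma 3.58.1 (R 4.3.3), the 3 groups sharing 1 spread, with Benjamini-Hochberg adjustment over all probesets and a threshold of 0.05. This replaced the methods' own test on each probeset, which was run as an alternative. Values by mouse are given for genes that passed in 2 or more comparisons with vehicle, for the 2 genes with the smallest adjusted p in each role, and for Lrp6. Fdps and Srebf2 were added after their values were seen. The genes and lists were chosen with earlier results of these data known. Promoters are from RefSeq (GRCm38.p6).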

Additional observations from a re-analysis of the deposited data

Results flagged for a closer look

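In 14 of the 135 sets of values checked (15 genes in 9 groups), the highest or lowest mouse stood apart from the others of its group, where chance gives about 1 in 20. Vehicle replicate 4 of Study 1 was the lowest of its group for Mvd at 9.221 (next 9.479), Lss at 9.727 (next 10.49), Hsd17b7 at 10.63 (next 11.28) and Npc2 at 11.13 (next 11.59). Cpd2 replicate 4 of Study 1 was the lowest for Cyp51 at 11.54 (next 11.85). Cpd2 replicate 4 of Study 2 was the highest for Mvd at 9.68 (next 9.089) and for Ebp at 11.17 (next 10.59). Npc2 was highest in Cpd1 replicate 8 of Study 1 at 11.92 (next 11.7) and lowest in vehicle replicate 4 of Study 2 at 11.11 (next 11.46). In Cpd18 mice of Study 4, Lss was lowest in replicate 3 at 10.34 (next 10.52) and Scarb1 in replicate 2 at 9.852 (next 10.22). For Ch25h, the vehicle mouse that stood apart was the lowest in Study 1, replicate 1 at 4.416 (next 4.911), and the highest in Study 2, replicate 1 at 5.262 (next 5.102), and in Study 4, replicate 2 at 5.36 (next 4.781). All values are log2 intensities.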

How the results depend on the processing

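None of the 35 calls of single genes in the stability table reversed its direction in any alternative, and 98 of 837 fits no longer passed. Most of these genes were named for their adjusted p in these data and the fits reuse the same arrays, so unchanged directions are weak evidence. The losses were uneven. With Cpd6 in Study 4, Lss was lost in 7 of 9 settings and Ebp in 7 of 8 fits without 1 mouse. Mvd with Cpd2 in Study 1 was never lost. The counts below are of the 30 genes. With array medians set equal, the number whose Cpd2 effect differed between Studies 1 and 2 was 1 (327), and with arrays weighted by quality it was 5 (1931). Array weights also gave 1 gene with Cpd1 in Study 1 (188), 1 with Cpd2 in Study 2 (89) and 8 with Cpd6 in Study 2 (1081). In 1 fit over 48 arrays, 1 gene passed with Cpd6 in Study 2 (231), 5 with Cpd6 in Study 4 (943) and 2 between Cpd6 and Cpd18 (94). With the methods' t-test after adjustment, 5 were lower and 1 was higher with Cpd6 in Study 4 (1643), and 0 passed between Cpd6 and Cpd18 (14). At the methods' own threshold, Study 2 had 1 for Cpd2 (295) and 1 between the compounds (481). For Cpd6 in Study 2, 4 were lower and 2 were higher at that threshold (728). Without an intensity trend, 6 passed with Cpd6 in Study 4 (2305) and 2 between Cpd6 and Cpd18 (110). In fits chosen after seeing the data, Cpd2 in Study 1 gave 9 genes against vehicle and 9 against Cpd1 without 4 mice low in muscle markers, and 6 and 9 with the muscle markers as a covariate. The hair follicle markers as a covariate gave 5 with Cpd6 in Study 4 and 2 between Cpd6 and Cpd18. With the replicate block, 2 genes passed between Cpd6 and Cpd18 (120). The labels share replicate numbers, but same-numbered mice deviated together (r over 0.1) in 5 of 24 pairs in Study 1, 3 of 12 in Study 2 and 7 of 12 in Study 4.

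Leaving out 1 mouse at a time gave 12 to 18 genes when Cpd2 was set against vehicle in Study 1 (18 without vehicle replicate 4), 0 to 1 for Cpd1, 12 to 17 between Cpd2 and Cpd1, 0 to 1 for Cpd2 in Study 2, 0 to 0 for Cpd6 in Study 2, 6 to 9 for Cpd6 in Study 4 (10 with all mice, and 6 when any of Cpd6 replicates 1, 2 and 4 and vehicle replicates 3 and 4 was left out), 0 to 0 for Cpd18, and 2 to 6 between Cpd6 and Cpd18. The number whose Cpd2 effect differed between studies ran from 0 to 4. With 4 mice a group in Studies 2 and 4, a gene that missed the threshold was not shown to be unaltered.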
